A study of Macaca mulatta with 4 samples.

Results

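IGF2BP1, IGF2BP2, IGF2BP3, HMGA1, HMGA2, LIN28A, LIN28B and SALL4 are genes of fetal growth and of tumours that resume fetal expression, and 6 of these 8 listed symbols had a row among the 21314 genes of the table. The list was chosen by gene family and on levels already seen in the same 4 libraries, so the levels below are descriptions without a test. LIN28A and LIN28B matched no row and were treated as not measured. RF/6A is a rhesus macaque (Macaca mulatta) line derived from the choroid and retina of a fetal eye, and its labels call the cells chorioretinal. All 4 libraries were total RNA from that 1 line, bought as 1 lot and grown in Dulbecco's medium with 10% fetal bovine serum, penicillin and streptomycin, and titled as static. They form 1 group with no control or treated cells, and nothing states that they came from separate cultures, so each SD (n = 4) covers only the spread between these samples, which may be technical.

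IGF2BP proteins bind messenger RNAs through RNA-recognition motifs and KH domains and protect many of them from decay. HMGA proteins grip AT-rich DNA with short AT hooks and bend it, and SALL4 is a zinc finger transcription factor of the early embryo and germ line. LIN28A and LIN28B block the maturation of let-7 microRNAs, and let-7 in turn represses HMGA2, the IGF2BP genes and LIN28B. Most of these genes fall silent after birth, whereas IGF2BP2 and HMGA1 stay on in a wider range of dividing adult cells.

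Library totals lay between 20366946 and 20550610 estimated counts, and 12453 genes averaged at least 1 count-per-million (CPM), with library sizes adjusted by the trimmed mean of M-values (TMM). Library 2 stood apart in composition. Ribosomal protein genes took 16.1% of its counts against 6.47% to 7.11% elsewhere. The gap between the farthest library and its nearest neighbour, divided by the range of the 4 (Dixon's test at its 95% critical value), set some library apart for 33.8% of these genes. In library 2 the middle 90% of genes spanned -2.66 to 1.62 log2 units around the 4-library median, against -0.33 to 0.34 in the widest limits of the others. Fibroblast markers fixed for the check of cell type were at 1 CPM or more in every library in 11 of 11 matched genes, with a summed level of 40962 to 46386 CPM. Endothelial markers were so in 1 of 8 (PECAM1), with a sum of 5.12 to 8.31 CPM, and retinal pigment epithelium and melanocyte markers in 4 of 8, including PMEL (36.5 CPM) and BEST1 (15.4 CPM), with TYR at 0. Retinal progenitor and neural markers were so in 2 of 6, PAX6 (19.9 CPM) and NES (8.53 CPM), with RAX and LHX2 among those at 0. Epithelial markers were so in 2 of 5, CDH1 (6.80 CPM) and EPCAM (2.19 CPM), with GRHL2 at 0, and blood markers in 2 of 7, LYZ (7.72 CPM) and CD68 (6.77 CPM), with CD3E at 0. The endothelial marker KDR and the pigment marker MITF missed the threshold only in library 2, at 0.432 and 0.617 CPM. In those lists 4 endothelial and 3 pigment markers were below 1 CPM in every library. The pigment epithelium sum was 953 CPM in library 2 and 361 to 422 CPM elsewhere, set mainly by SERPINF1, and the part of this in the values below was not tested.

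All 6 measured genes reached 1 CPM in every library. That threshold was passed by 52.9% of all rows, by 64.2% of the 14654 rows with a symbol and by 92.7% of rows kept by edgeR's filterByExpr. Since the genes were listed with their levels known, the count supports nothing further. Their median was 6.15 log2(CPM + 0.5), against 3.33 over rows with a symbol and 1.90 over all rows. Together they held 13579 counts in library 2 and 16772 to 17382 in the others, before any scaling. In TMM-scaled CPM the IGF2BP genes summed to 322 in library 2 and 459 to 516 in the others. The HMGA genes went the other way, with 513 CPM in library 2 and 272 to 295 CPM in the others. CPM is not divided by transcript length, and no lengths were used, so the order of levels given here is an order of sequenced reads and not of molecules. In that order the 4-library means of IGF2BP2 and HMGA1 lay within 1 SD of each other. That closeness rests on library 2, where IGF2BP2 measured 236 CPM and HMGA1 490.2 CPM. In libraries 1, 3 and 4 IGF2BP2 was the higher each time. Without library 2 the means were 330 ± 26.0 CPM for IGF2BP2 and 233 ± 12.9 CPM for HMGA1 (SD, n = 3). IGF2BP3, HMGA2, IGF2BP1 and SALL4 followed, each with all 4 libraries below those of the gene before it.

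**Figure D1:**
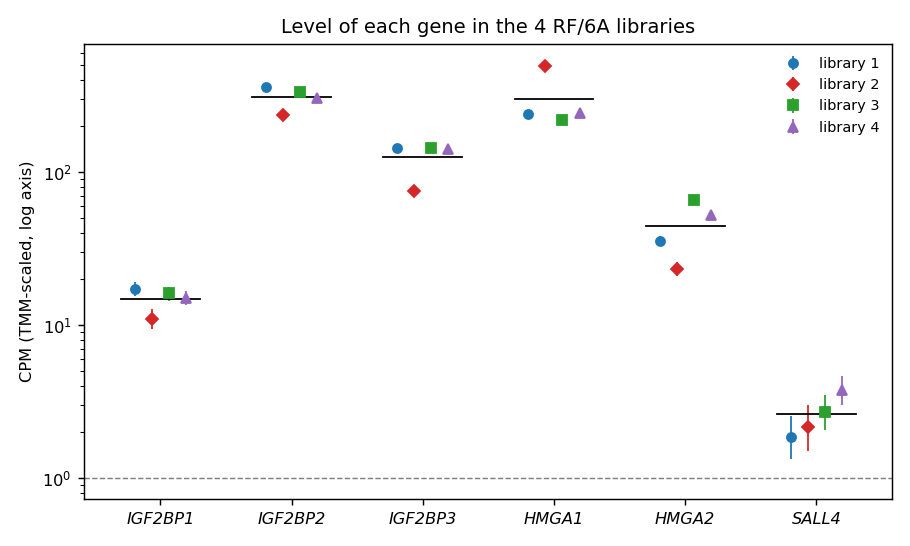
Symbols show IGF2BP1, IGF2BP2, IGF2BP3, HMGA1, HMGA2 and SALL4 in the 4 libraries, as TMM-scaled CPM (log axis), with exact 95% Poisson limits that cover counting error only. Black bars are means, and the dashed line marks 1 CPM. Library 2 (red diamonds) is the lowest for IGF2BP1, IGF2BP2, IGF2BP3 and HMGA2 and the highest for HMGA1, and all points lie above the line.

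IGF2BP2 (ENSMMUG00000023416), the member of its family that persists in adult tissues, measured 356, 236, 332 and 304 CPM in libraries 1 to 4, or 307 ± 51.8 CPM (SD, n = 4). Library 2 was the lowest, and the mean exceeded that of 97.6% of rows. IGF2BP3 (ENSMMUG00000004839), an oncofetal relative that is scarce in most adult tissues, measured 144, 75.1, 144 and 141 CPM, or 126 ± 33.8 CPM. Without library 2 it was 143 ± 1.70 CPM (n = 3), and its SD on the log2 scale was then smaller than that of all but 1.94% of the genes averaging 1 CPM. That share was not matched for level. The Poisson limits of 1 library alone were wider (139 to 149 CPM in library 1), so the small SD does not show an unusually steady level. IGF2BP1 (ENSMMUG00000011533), the relative first described as binding the coding region of MYC mRNA and the zipcode of ACTB mRNA, measured 17.2, 10.9, 16.1 and 15.01 CPM, or 14.8 ± 2.75 CPM. It was the lowest of the 3 relatives in reads and was again lowest in library 2. The 3 genes are close relatives, and reads that match more than 1 of them are shared out by estimation, an error that the Poisson limits do not cover.

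The ratio of IGF2BP2 to IGF2BP1 hardly moved between libraries, although both genes were lowest in library 2. It was 20.6, 21.6, 20.6 and 20.2 in libraries 1 to 4, a difference of 4.33 ± 0.03 log2 units (SD, n = 4). IGF2BP1 rests on 379, 177, 358 and 332 counts, and its Poisson limits in library 2 were 9.37 to 12.7 CPM around 10.9 CPM. Those limits are wider than the movement of the ratio, so the SD does not show how closely the proportion is held. IGF2BP3 moved more against both relatives. The difference IGF2BP2 minus IGF2BP3 was 1.31, 1.64, 1.20 and 1.11 log2 units, and IGF2BP3 minus IGF2BP1 was 3.02, 2.73, 3.12 and 3.19. Thus library 2 held less IGF2BP3 in relation to both relatives than any other library did. The size of each difference carries the unknown ratio of transcript lengths, whereas its movement between libraries does not while the transcript forms stay the same. No library stood apart by Dixon's test in any of these 3 differences.

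HMGA1 (ENSMMUG00000019529), which encodes the architectural chromatin protein common in dividing cells, measured 237, 490.2, 218 and 243 CPM, or 297 ± 129 CPM (SD, n = 4). Library 2 was far above the others, and without it the level was 233 ± 12.9 CPM (n = 3). Human HMGA1 has processed pseudogenes, and where rhesus has them too, reads could have been shared with copies that carry no symbol here. HMGA2 (ENSMMUG00000022660), its relative of embryonic mesenchyme and of mesenchymal tumours, measured 35.5, 23.3, 65.2 and 52.6 CPM, or 44.1 ± 18.5 CPM. The Poisson limits of no 2 libraries overlapped, and the nearest pair was 49.6 to 55.7 CPM in library 4 and 61.9 to 68.7 CPM in library 3. The excess of HMGA1 over HMGA2 was 6.68-fold, 21.1-fold, 3.34-fold and 4.61-fold in libraries 1 to 4, a difference of 2.75 ± 1.15 log2 units. This was the most variable of the 4 differences between relatives.

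**Figure D2:**
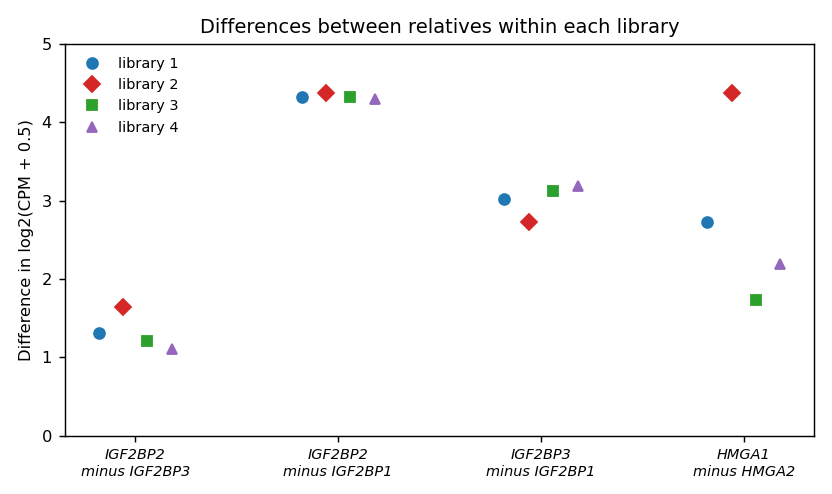
Points give the difference in log2(CPM + 0.5) between pairs of relatives within each of the 4 libraries, not divided by transcript length. IGF2BP2 minus IGF2BP1 stays at 4.29 to 4.37 in every library, whereas HMGA1 minus HMGA2 runs from 1.73 in library 3 to 4.37 in library 2.

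SALL4 (ENSMMUG00000003870) was the lowest of the 6, at 1.87, 2.16, 2.70 and 3.75 CPM, or 2.62 ± 0.831 CPM (SD, n = 4). It rests on 41, 35, 60 and 83 counts, and its mean exceeded that of 47.8% of rows. The Poisson limits of library 1 (1.34 to 2.53 CPM) and library 4 (2.99 to 4.65 CPM) did not overlap. The limits of libraries 2 and 3 overlapped those of every other library.

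HMGA2 and SALL4 differed from the other 4 genes in varying among libraries 1, 3 and 4, which were otherwise alike. The highest of these 3 libraries was 1.84-fold above the lowest for HMGA2 and 2.01-fold for SALL4, against 1.02-fold to 1.17-fold for IGF2BP1, IGF2BP2, IGF2BP3 and HMGA1. A range of 1.5-fold or more was found for 14.6% of all genes averaging 1 CPM, for 5.78% of those averaging at least 10 CPM, where HMGA2 lies, and for 34.2% of those between 1 and 10 CPM, where SALL4 lies. The SD of log2 level over these 3 libraries was 0.44 for HMGA2 and 0.42 for SALL4, above 94.7% and 94.3% of genes and against a median of 0.12. These shares were taken over all genes averaging 1 CPM, whatever their level. SALL4 had only 41, 60 and 83 counts in these libraries, so its rank also carries counting error. HMGA2 was highest in library 3 and SALL4 in library 4.

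Library 2 was the lowest of the 4 for IGF2BP1, IGF2BP2, IGF2BP3 and HMGA2 and the highest for HMGA1. Across all genes averaging 1 CPM it was the lowest for 48.0% and the highest for 43.8%, so an extreme value in that library is common. By Dixon's test it stood apart for IGF2BP3, low, and for HMGA1, high, where all genes gave 11.2% and 21.8%. The deviation of library 2 from the 4-library median was -0.49 log2 units for IGF2BP1, -0.43 for IGF2BP2, -0.92 for IGF2BP3, -0.88 for HMGA2, -0.13 for SALL4 and 1.03 for HMGA1. HMGA1 lay above 83.4% of all genes in this respect, and the others lay above 27.0% to 46.9%. With plain CPM the median of all genes in library 2 shifted from -0.04 to -0.42, the deviations were -0.92, -0.87, -1.35, -1.31, -0.41 and 0.59 in the same order, and SALL4 joined the genes lowest in that library. Under that scaling library 2 was the lowest for 59.9% of genes and the highest for 31.4%. HMGA1 therefore stayed high and the IGF2BP genes and HMGA2 low under TMM, plain CPM and DESeq2 size factors.

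**Figure D3:**
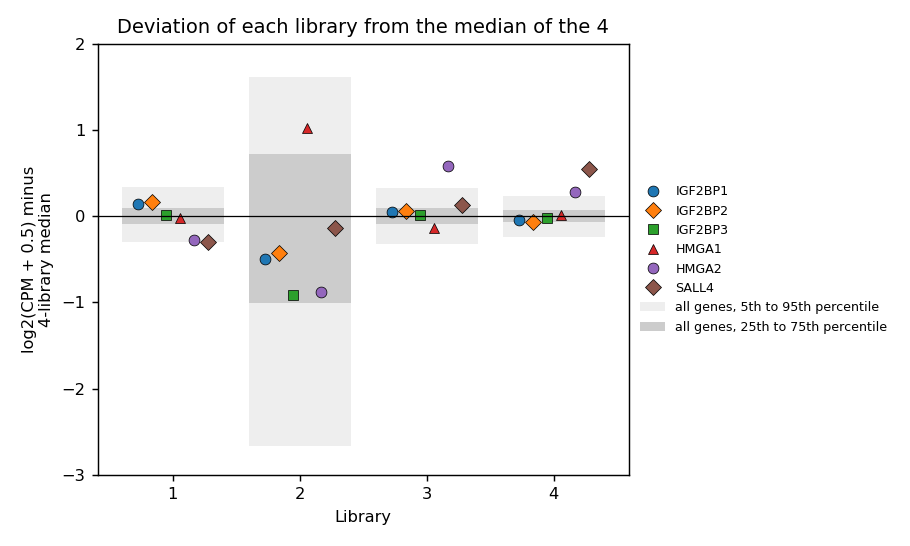
Symbols give log2(CPM + 0.5) of each gene minus its median over the 4 libraries, and grey bars give the spread of the 12453 genes averaging 1 CPM. In library 2 the 6 genes lie inside the wide grey bar, with HMGA1 at 1.03 and IGF2BP3 at -0.92. In libraries 3 and 4, HMGA2 (0.59 and 0.28) and SALL4 in library 4 (0.55) lie above the bar. In library 1, SALL4 (-0.301) lies just below it (lower end -0.297).

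Genes with the most similar course over the 4 libraries were sought among 9412 others that have a symbol and reach 1 CPM throughout, by the root mean square difference of log2 levels after each gene's own mean was subtracted. For IGF2BP1 these included MDC1 (0.011 log2 units), and for IGF2BP2 they were ZMYM3 (0.014) and PRIMPOL (0.017), where a typical gene was at 0.44 from either. IGF2BP2 ranked 15th for IGF2BP1 at 0.028, and IGF2BP1 ranked 10th for IGF2BP2, while IGF2BP3 ranked 1469th and 1816th. For IGF2BP3 the closest were HDX (0.004) and ELAC2 (0.009), and for HMGA1 they were KIF22 (0.010) and ATG101 (0.014). For HMGA2 they were NIPA1 (0.044) and ZNF589 (0.054), and for SALL4 SMIM14 (0.060) and COPS7A (0.077). HMGA1 and HMGA2 were farther from each other (0.995) than most genes were from either. These are distances over 4 points that library 2 dominates, and they carry no p-value. They also take no account of counting error. For IGF2BP1 (Poisson limits of 9.37 to 12.7 CPM around 10.9 CPM in library 2) and SALL4 (35 to 83 counts) that error is wider than the distances listed. The ranks for these genes therefore do not show which genes run closest.

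Of 16 genes for microRNA processing and for the step on which LIN28 proteins act, 13 reached 1 CPM throughout, and 15 did without library 2. The counts of this and the following lists stand beside the 64.2% of all rows with a symbol that reached 1 CPM, and none was tested against it. Their list had a median of 5.12 ± 0.38 log2(CPM + 0.5), with 4.57 in library 2. HNRNPA1, an RNA-binding protein that modulates let-7 processing, measured 975 ± 114 CPM (SD, n = 4), KHSRP, which promotes it, 129 ± 4.08 CPM, and DROSHA, the nuclear ribonuclease that crops primary microRNAs, 83.7 ± 14.3 CPM. TUT4, which adds uridines to let-7 precursors held by LIN28A, measured 74.5 ± 35.8 CPM, with 22.02 CPM in library 2. DIS3L2, which degrades the uridylated precursors, measured 16.4 ± 8.59 CPM. TRIM71, a let-7 target of early embryos, had no count in any library. AGO1 and AGO3, which load microRNAs, missed the threshold only through library 2, at 0.432 and 0.925 CPM.

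Of 19 matched let-7 targets outside the family, 15 reached 1 CPM in every library (18 without library 2 and with TMM factors recomputed, 14 with plain CPM), with a list median of 4.32 ± 0.35 log2(CPM + 0.5). CCND1, a cyclin of the G1 phase, measured 471 ± 261 CPM with 80.7 CPM in library 2 and 572 to 621 CPM elsewhere. THBS1, which encodes thrombospondin, had 51.1 CPM there and 522 to 588 CPM elsewhere, whereas MYC, the growth transcription factor, had 408 CPM there against 250.2 to 266 CPM. The other 4 genes included IRS2, which was below 1 CPM in library 2 alone, and ARID3B (0.985 ± 0.449 CPM) and NR6A1 (0.616 ± 0.313 CPM). No microRNA was measured in these libraries.

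All 15 ribonucleoprotein partners of IGF2BP proteins reached 1 CPM in every library, with a list median of 7.91 ± 0.58 log2(CPM + 0.5), of which library 2 had 7.04. PABPC1, the poly(A)-binding protein, measured 3491 ± 202 CPM, and YBX1, a cold-shock RNA-binding protein, 1841 ± 323 CPM. Of 13 matched transcripts bound by IGF2BP proteins, 11 did so (10 with plain CPM), with a list median of 5.41 ± 0.28. ACTB, the actin whose mRNA IGF2BP1 localises, measured 4750.0 ± 2077 CPM, CTNNB1, which encodes beta-catenin, 409 ± 244 CPM with 43.1 CPM in library 2, and MKI67, a marker of cycling cells, 295 ± 98.2 CPM. IGF2, the growth factor that names the family, measured 2.46, 1.05, 1.35 and 2.62 CPM, or 1.87 ± 0.787 CPM, so it was just above the threshold in library 2, and below it there with plain CPM. LEF1 (0.440 ± 0.258 CPM) was below 1 CPM in every library and MAPK4 had no count. All 15 matched genes of the m6A pathway, whose mark IGF2BP proteins read, were also at 1 CPM or more, led by HNRNPA2B1 at 546 ± 79.0 CPM, HNRNPC at 399.95 ± 108 CPM and YTHDF3 at 305 ± 204 CPM. Their list median was 5.80 ± 0.81, and library 2 had 4.59 against 6.20 to 6.22, with YTHDF3 at 11.6 CPM there.

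Among chromatin genes, 11 of 11 other high mobility group and linker histone genes were at 1 CPM or more in every library, with a list median of 6.68 ± 0.27 log2(CPM + 0.5). HMGB1, a DNA-bending protein, measured 368 ± 24.5 CPM, HMGN1, a nucleosome binder, 300.4 ± 7.54 CPM and HMGB2 223 ± 21.7 CPM. Of the 11, 8 were highest in library 2, as 43.8% of all genes averaging 1 CPM were, with a median deviation of 0.48 log2 units there, and the difference from other genes was not tested. All 5 matched genes of the list labelled downstream of HMGA proteins were at 1 CPM or more (list median 6.22 ± 0.48), with SNAI2 at 102 ± 7.56 CPM, CCNA2, an S-phase cyclin that HMGA2 activates, at 100.2 ± 5.97 CPM and RB1 at 66.6 ± 41.5 CPM, of which library 2 had 4.81 CPM. A place on this list does not mean that HMGA proteins regulate the gene, RB1 and E4F1 included. Of 20 genes of the SALL family, of the NuRD repressor that SALL4 recruits and of the CRBN ligase, 18 were at 1 CPM or more (list median 6.15 ± 0.20). CHD3 measured 246 ± 71.0 CPM, CHD4 239 ± 29.2 CPM and HDAC2 205 ± 29.0 CPM. Among its relatives SALL2 measured 82.4 ± 19.6 CPM and SALL1 0.805 ± 0.559 CPM, and SALL3 had no count. CRBN, the receptor through which thalidomide degrades SALL4 protein, measured 44.9 ± 4.47 CPM.

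Other fetal genes were less uniform. Of 13 matched oncofetal and imprinted fetal growth genes, 6 were at 1 CPM or more throughout (5 with plain CPM), a share of 46.2%. The list median, over all 13, was 0.80 ± 0.30 log2(CPM + 0.5). MEST, an imprinted gene of embryonic mesoderm, measured 206 ± 94.8 CPM with 64.2 CPM in library 2, IGF2R, the receptor that clears IGF2, 158 ± 89.3 CPM with 27.0 CPM there, and GRB10, an imprinted adaptor that restrains growth, 37.6 ± 4.65 CPM. DLK1 and CRABP1 had no count, and AFP, the fetal serum protein of liver, measured 0.228 ± 0.176 CPM with none in library 1. Pluripotency and germ cell genes, the other setting in which SALL4 and LIN28A are expressed, reached the threshold in 1 of 14 matched members, and 12 were below 1 CPM in every library. That gene was DNMT3B, a DNA methyltransferase that is not confined to such cells, at 6.42 ± 0.677 CPM. PRDM1 measured 0.647 ± 0.113 CPM and DNMT3L 0.473 ± 0.479 CPM, with 1.17 CPM in library 2. DPPA4, KLF17, TERT, ESRRB and TFAP2C had no count, and the summed level of the 14 was 7.69 to 8.63 CPM, most of it DNMT3B. All 10 proliferation genes were at 1 CPM or more, with a list median of 6.59 ± 0.14, including TOP2A, the mitotic topoisomerase, at 680.1 ± 293 CPM and CCNB1, the mitotic cyclin, at 144 ± 37.2 CPM.

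**Figure D4:**
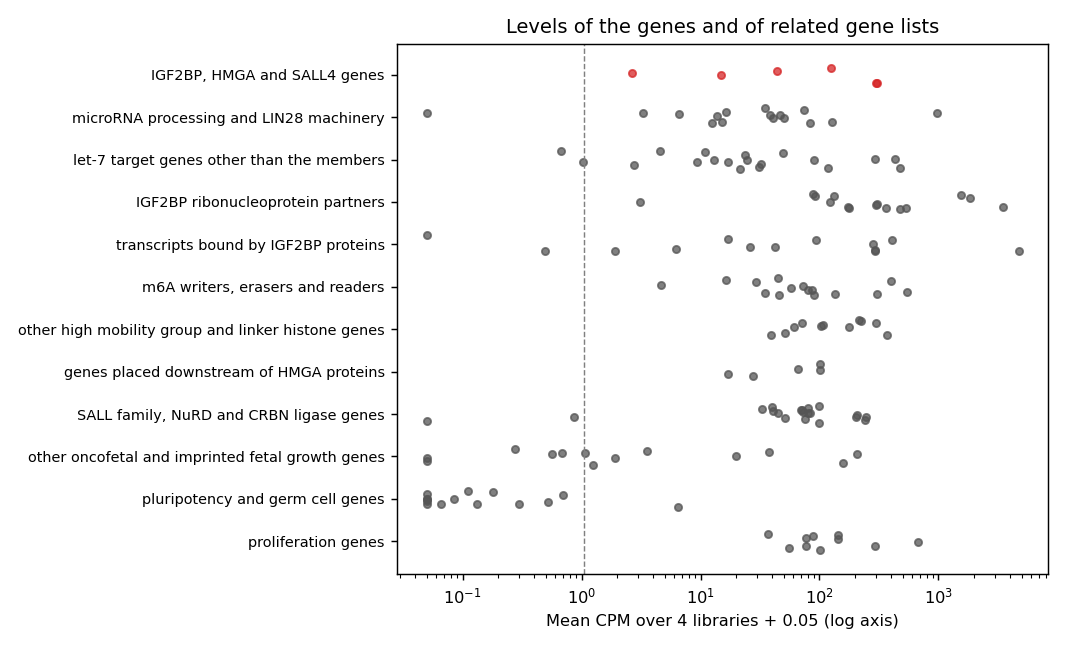
Points give mean levels over the 4 libraries (CPM + 0.05, log axis) for the 6 measured genes (red) and 11 related lists (grey), with a dashed line at 1 CPM. Pluripotency and germ cell genes lie left of the line except DNMT3B, whereas partners of IGF2BP proteins and proliferation genes all lie right of it.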

How the data were processed

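The authors deposited estimated counts per Ensembl rhesus gene as whole numbers, not normalised. The submitters' processing notes list Salmon and DESeq2 with neither version nor role. Genome build, annotation and strandedness were not given in the sources used here. Symbols came from a table of current Ensembl identifiers, which named 14654 rows and not the other 6660. Of 175 distinct genes in 11 related lists, 147 matched. No sequences, lengths or coordinates were used. Counts were scaled with TMM in edgeR 4.0.16 (R 4.3.3), and with size factors of DESeq2 1.42.0 as an alternative. Log values used a pseudocount of 0.5. A count of 3, taken as the limit that 0 allows, is 0.135 to 0.185 CPM per library. Intervals cover counting error only. With 1 group there was no contrast and no p-value. The genes, lists, threshold and tests were chosen with earlier results of these data known. The text names the genes of interest, the 3 highest genes of each list, up to 3 that stayed below 1 CPM throughout, and 2 genes of like course per gene. IGF2, TUT4, DIS3L2, AGO1, AGO3, IRS2, ARID3B, NR6A1, SALL1, SALL2, CRBN, ESRRB and TFAP2C were added once their values had been seen, as were the ranges over libraries 1, 3 and 4. A few genes that the rule would name are not reported here. The code for Dixon's test was tested on simulated data.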

Additional observations from a re-analysis of the deposited data

Results flagged for a closer look

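Dixon's test was run on 62 values, namely the 6 genes, 4 differences between relatives, 41 list genes and 11 list medians. A library lay apart in 16 of them and library 2 was that library each time, so these are not independent. Chance gives about 1 in 20, but across all genes averaging 1 CPM the share was already 33.8%. The 62 values are not a like set, since they include differences, list medians and genes without a count, which cannot be set apart. Whether the 16 exceed the share over all genes was therefore not tested. Library 2 was low for 10 values and high for 6.

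Among the genes of interest, IGF2BP3 was low at 75.1 CPM and HMGA1 high at 490.2 CPM in library 2. Among list genes it was low, in CPM, for CCND1 (80.7), THBS1 (51.1), CTNNB1 (43.1), RB1 (4.81), MEST (64.2) and TOP2A (242). It was high for MYC (408), HMGB2 (255), CHD3 (352), HDAC2 (248) and CCNB1 (199). The list medians of IGF2BP partners (7.04 log2 units), of transcripts bound by IGF2BP proteins (4.99) and of the m6A pathway (4.59) were low there. No difference between relatives was set apart.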

How the results depend on the processing

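Plain CPM and DESeq2 size factors moved no mean level of the 6 genes by more than 1 SD between libraries. Differences between relatives are taken within a library, where scaling cancels, and leaving out 1 of 4 values can hardly move a mean by 1 SD, so neither tests their stability. All 6 genes were at 1 CPM or more under every scaling, without any library and with filterByExpr, and also at thresholds of 0.5 and 2 CPM except SALL4 at 2 CPM, which left 5. Library 2 stood apart for IGF2BP3 and HMGA1, and for no other of the 6, under every scaling and on the log2 scale. With a pseudocount of 0.1 the difference IGF2BP2 minus IGF2BP1 was 4.37 log2 units, which exceeds its small SD. At 0.5 CPM, 2 pluripotency and germ cell genes passed in place of 1. Without library 2, and with TMM factors recomputed, the microRNA machinery went from 13 to 15 and let-7 targets from 15 to 18. The mean levels given above without library 2 kept the factors of all 4 libraries. With recomputed factors IGF2BP3 was 154 CPM and HMGA1 251 CPM. With plain CPM let-7 targets went to 14, bound transcripts from 11 to 10 and other oncofetal genes from 6 to 5, and IGF2 no longer passed. Division by coding length was not run, since no lengths were given. No paired analysis was possible because the 4 libraries form 1 group. Depth limits SALL4 most, at 35 to 83 counts per library.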
